A study of Mus musculus with 12 samples.

Results

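The 5 NF-κB subunit genes (Nfkb1, Nfkb2, Rel, Rela and Relb) and 5 genes of the IκB group (Nfkbia, Nfkbib, Nfkbie, Nfkbiz and Bcl3) were examined in mouse peritoneal macrophages. They were taken by gene symbol, and these 10 genes were found among the 16920 in the count tables. The cells were cultured peritoneal macrophages, and their donors carried the label of wild type (WT) or of a Ythdf1 knockout (KO). YTHDF1 is a cytoplasmic reader of N6-methyladenosine on mRNA. Per the paper, the knockout was made by CRISPR/Cas9. All mice were on a C57BL/6 background, and the methods give an age of 6 to 10 weeks. Cells received PBS or 1 µg/mL lipopolysaccharide (LPS, a bacterial ligand of TLR4) for 6 h, which gave 4 groups (WT PBS, WT LPS, KO PBS and KO LPS) of 3 libraries each. For eliciting the cells, the series record gives starch broth and the methods give thioglycollate.

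NF-κB is a family of dimeric transcription factors. In resting cells, IκB proteins hold the dimers in the cytoplasm. TLR4 signalling activates the IκB kinase (IKK), after which the IκB protein is ubiquitinated and degraded and the dimers enter the nucleus. Rela, Rel and Relb encode the subunits with an activation domain, whereas Nfkb1 and Nfkb2 encode the precursors p105 and p100, which are processed to p50 and p52. Nfkbia (IκBα), Nfkbib (IκBβ) and Nfkbie (IκBε) encode cytoplasmic inhibitors. Nfkbiz (IκBζ) and Bcl3 encode nuclear members that bind p50 or p52 dimers and modulate transcription. Several of these genes are themselves known NF-κB targets, which in macrophages forms feedback loops.

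Because the members responded to LPS together, their promoters were searched for κB motifs, the DNA elements bound by NF-κB. RefSeq windows (GRCm38.p6) covering 250 bases before and 50 bases after the start site were at hand for 7 of the 10 members, 9 windows in all. The windows lacking were those of Nfkb1, Relb and Nfkbiz. The κB consensus, a 10-base pattern searched on both strands, was matched in windows of 5 members (Nfkb2, Rel, Nfkbia, Nfkbie and Bcl3) and in no window of Rela or Nfkbib. Such a match was held by 5.14% of all 27025 genes with a window, and by 4.51% of all 32851 windows. A match is a description of the sequence and not evidence of binding, and the absence of one says only that these letters are not in the window. The last 120 bases before a start site are given below for the members whose match lies there, 5′ to 3′ in the direction of the gene, with the consensus matches in capitals. They are chr19:46304617-46304736 on the plus strand for Nfkb2, chr11:23770970-23771089 on the minus strand for Rel, chr12:55492648-55492767 on the minus strand for Nfkbia and chr17:45555580-45555699 on the plus strand for Nfkbie.
Nfkb2: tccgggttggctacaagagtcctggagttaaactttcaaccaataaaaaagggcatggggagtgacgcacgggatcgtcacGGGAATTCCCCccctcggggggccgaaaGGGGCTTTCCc
Rel: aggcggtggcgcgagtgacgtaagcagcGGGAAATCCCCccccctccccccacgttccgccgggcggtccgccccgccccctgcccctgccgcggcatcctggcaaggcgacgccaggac
Nfkbia: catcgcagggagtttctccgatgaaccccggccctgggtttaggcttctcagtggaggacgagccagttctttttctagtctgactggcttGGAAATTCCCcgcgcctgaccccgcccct
Nfkbie: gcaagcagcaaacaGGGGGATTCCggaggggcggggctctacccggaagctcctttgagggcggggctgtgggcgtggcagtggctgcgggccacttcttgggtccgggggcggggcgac

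In Nfkb2 a match began 39 bases and another 11 bases before the start site, and the windows of its other start sites held GGAATGTCCC, beginning 236 bases before one of them, and GGGACTTTCC, which lies in both windows and begins 225 bases before the other. The match began 92 bases before the start site in Rel, 106 bases before it in Nfkbie and 29 bases before it in Nfkbia, where it was read on the opposite strand. In Bcl3 the match, GGGAAGTCCC, began at base 3 after the start site.

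The libraries held 21546274 to 22017005 counts, and 12064 genes passed the filter on low counts, all 10 members among them. Levels are given as normalised read counts (CPM, the count relative to the library total after TMM scaling). The Ythdf1 mRNA was not lower in the KO-labelled cells, with log2 differences from WT of 0.40 ± 0.06 (SE, adjusted p = 0.000133) under PBS and -0.03 ± 0.06 (adjusted p = 0.724) under LPS. Within these libraries the genotype therefore rests on the labels alone. The paper reports genotyping of knockout mice from tail samples and Western blotting for YTHDF1 in chimeric mice. Which part of the gene was removed was not used here, and a deletion that leaves the counted exons would not show. The first WT LPS library stood apart from its group, with a mean chi-square per gene of 30.5 and 23.7 against the other two, which differed from each other by 2.95. In the remaining groups this measure was 2.73 to 15.3. The third KO PBS library had the highest level of its group for 22 of the 26 NF-κB target genes described below (84.6%), for 6 of the 10 members (60.0%) and for 35.6% of all genes tested. Without it Nfkbia (log2 0.43) and Bcl3 (-0.42) were still called between the labels under PBS, and the interaction of Nfkbiz was not (adjusted p = 0.0575). The summed CPM of the 6 macrophage markers (Adgre1, Cd68, Csf1r, Itgam, Lyz2 and Mertk) was 16647 to 18261 over the 12 libraries. The mean summed CPM of the 5 dendritic cell markers was 15.2 in WT PBS, 7.31 in KO PBS, 87.7 in WT LPS and 49.6 in KO LPS. That of the 5 fibroblast markers was 73.7, 35.2, 112 and 54.7 in the same order. The lists of dendritic cell, fibroblast, mesothelial and resident peritoneal macrophage markers each summed lower in every KO library than in every WT library of the same treatment, and 3 of the 6 macrophage markers were called lower in KO LPS. All 4 fibroblast markers tested were called lower in KO under either treatment. Of the 4 dendritic cell markers tested, 3 were called lower under PBS, Ccr7 on 7 counts a library or fewer, but under LPS only Fscn1 was (mean CPM of 76.2 in WT and 36.3 in KO), and Ccr7 (8.82 and 10.1) and Xcr1 (1.33 and 1.95) had the higher mean in KO without passing. Of the 5 mesothelial markers, Wt1 and Upk3b were called lower under PBS and Wt1 under LPS (2.83 and 1.03). Among the resident macrophage markers Icam2 was called higher in KO PBS (log2 0.50). Under LPS the neutrophil marker S100a8 was called higher in KO (log2 0.49, adjusted p = 0.049, with overlapping groups). Of the other neutrophil markers, S100a9, Retnlg and Camp were too low to test, and Ly6g and Ngp were not in the count tables. The eosinophil marker Siglecf was called lower in KO under LPS (-0.86). The part of these markers in the genotype differences below was not tested. The T cell marker Cd3e had at most 1 count in any library, whereas Cd4 had 46 to 53 and Cd8a 16 to 28 counts per WT PBS library. B cell, T cell, mast cell, eosinophil, neutrophil and mesothelial lists summed to at most 16.0 CPM in any library.

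To ask how LPS alters this system, LPS was first compared with PBS within each genotype. All 10 members were higher in WT LPS than in WT PBS, against a background of 36.5% of all genes tested that were called higher (adjusted p under 0.05) and 40.2% that were called lower. All 10 were also higher in the KO-labelled cells, where 38.8% of all genes were called higher and 41.1% lower. The groups did not overlap for any member in either genotype, which was true of 78.2% and 81.3% of all genes. The median log2 fold change of the members was 3.78 in WT and 4.19 in KO, compared with -0.05 and -0.04 over all genes tested. In bulk RNA, more cells expressing a gene and more RNA per cell cannot be told apart. The 2 responses rest on separate libraries.

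**Figure D1:**
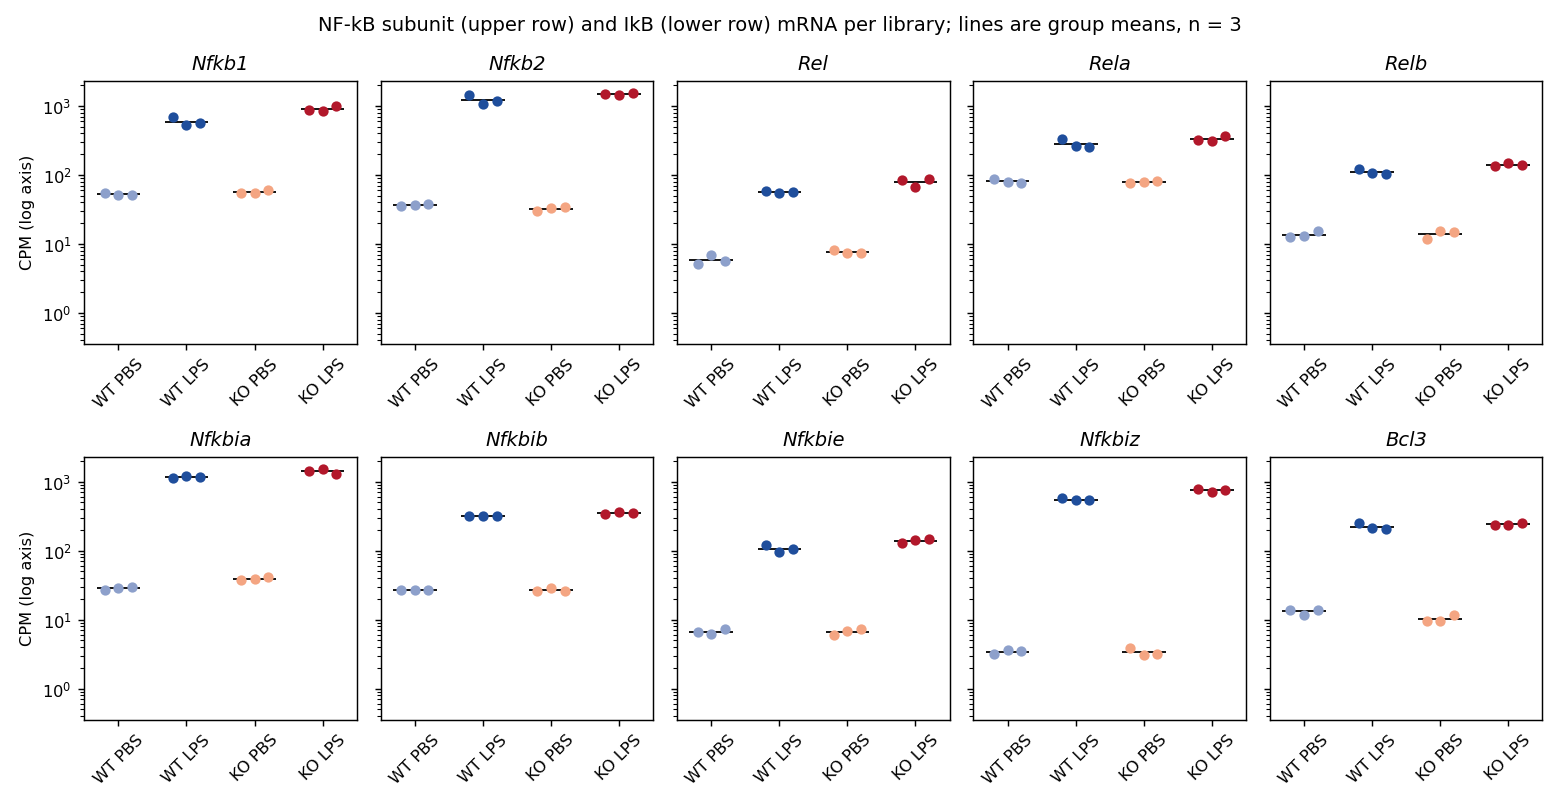
Normalised read count (CPM, log axis) of each gene in each of the 12 libraries, with subunits in the upper row and IκB genes in the lower row. Points are libraries and lines are group means (n = 3). All LPS libraries lie above all PBS libraries for all 10 genes, from the smallest rise in Rela to the largest in Nfkbiz.

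Among the subunits, Nfkb2 (chromosome 19, 46300994 to 46312400) rose most. Its level was 36.0, 37.2 and 37.6 CPM in WT PBS and 1446, 1061 and 1159 CPM in WT LPS. In the KO-labelled cells it was 29.5, 33.0 and 34.8 CPM under PBS and 1469, 1431 and 1534 CPM under LPS. The rise was 33.1-fold in WT (log2 5.05 ± 0.11, SE, adjusted p = 1.59e-16) and 45.6-fold in KO (log2 5.51 ± 0.11, adjusted p = 5.68e-17).

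Nfkb1 (chromosome 3, 135584655 to 135691969) was at 54.8, 52.0 and 51.4 CPM in WT PBS and 690, 529 and 564 CPM in WT LPS. In the KO-labelled cells it was at 53.9, 54.9 and 60.9 CPM under PBS and 877, 841 and 987 CPM under LPS. The 2 PBS groups overlapped, and every KO LPS library lay above every WT LPS library. The response to LPS was 11.3-fold in WT (log2 3.49 ± 0.10, adjusted p = 3.72e-15) and 15.9-fold in KO (log2 3.99 ± 0.10, adjusted p = 7.03e-16).

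The subunits that carry an activation domain rose less than Nfkb2. Rela (chromosome 19, 5637442 to 5648134) had the smallest change of the 10 members, from 85.8, 80.1 and 77.5 CPM to 330, 259 and 255 CPM in WT. In the KO-labelled cells it went from 75.9, 79.5 and 81.9 CPM to 317, 313 and 368 CPM. These were rises of 3.46-fold (log2 1.79 ± 0.09) and 4.21-fold (log2 2.07 ± 0.09). Rel (chromosome 11, 23736847 to 23770969) had the lowest level per length of the subunits and moved from 5.06, 6.98 and 5.65 CPM to 58.8, 54.1 and 56.7 CPM in WT. In KO it moved from 8.12, 7.30 and 7.44 CPM to 85.3, 66.5 and 88.6 CPM, and the log2 responses were 3.26 ± 0.12 and 3.39 ± 0.12. Both KO groups of Rel lay above the WT group of the same treatment in every library. Relb (chromosome 7, 19606217 to 19629438), whose product pairs with p52 in the non-canonical branch, went from 12.8, 13.0 and 15.2 CPM to 121, 108 and 104 CPM in WT. In KO it went from 11.97, 15.5 and 14.7 CPM to 134, 146 and 139 CPM, with log2 responses of 3.02 ± 0.10 and 3.32 ± 0.10.

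Of the cytoplasmic inhibitors, Nfkbia (chromosome 12, 55489409 to 55492647) was the most abundant and rose most. Its level was 26.7, 28.7 and 29.5 CPM in WT PBS and 1117, 1190 and 1172 CPM in WT LPS. In the KO-labelled cells it was 37.0, 38.2 and 41.7 CPM under PBS and 1447, 1539 and 1279 CPM under LPS. Under both treatments every KO library was above every WT library. The response was 41.0-fold in WT (log2 5.36 ± 0.08) and 36.5-fold in KO (log2 5.19 ± 0.08), the only member whose fold was smaller in KO.

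Nfkbib (chromosome 7, 28758251 to 28766644) had little spread, with 26.9, 26.5 and 26.8 CPM in WT PBS and 318, 316 and 320 CPM in WT LPS. In KO it was at 26.4, 28.4 and 26.3 CPM under PBS and 339, 368 and 347 CPM under LPS, and its log2 responses were 3.57 ± 0.06 and 3.70 ± 0.06. Nfkbie (chromosome 17, 45555700 to 45563169) was at 6.65, 6.22 and 7.26 CPM in WT PBS and 119, 96.7 and 105 CPM in WT LPS. In KO it was at 6.02, 6.77 and 7.26 CPM under PBS and 130, 141 and 147 CPM under LPS, and its log2 responses were 3.99 ± 0.10 and 4.38 ± 0.10. For both genes the PBS groups overlapped between genotypes and the LPS groups did not.

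Of the nuclear members, Nfkbiz (chromosome 16, 55811375 to 55838954) was low under PBS, at 3.18, 3.61 and 3.54 CPM in WT and 3.85, 3.09 and 3.15 CPM in KO. It reached 575, 536 and 536 CPM in WT LPS and 769, 703 and 762 CPM in KO LPS. The rise was 159-fold in WT (log2 7.31 ± 0.09) and 221-fold in KO (log2 7.79 ± 0.09), which placed Nfkbiz at rank 88 and rank 105 of 12064 genes by fold change. Bcl3 (chromosome 7, 19808462 to 19822824) went from 13.8, 11.8 and 13.8 CPM to 253, 210 and 206 CPM in WT. In KO it started lower, at 9.70, 9.69 and 11.7 CPM, and ended at 236, 237 and 251 CPM, with log2 responses of 4.09 ± 0.10 and 4.54 ± 0.10. The LPS groups of Bcl3 overlapped and its PBS groups did not.

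**Figure D2:**
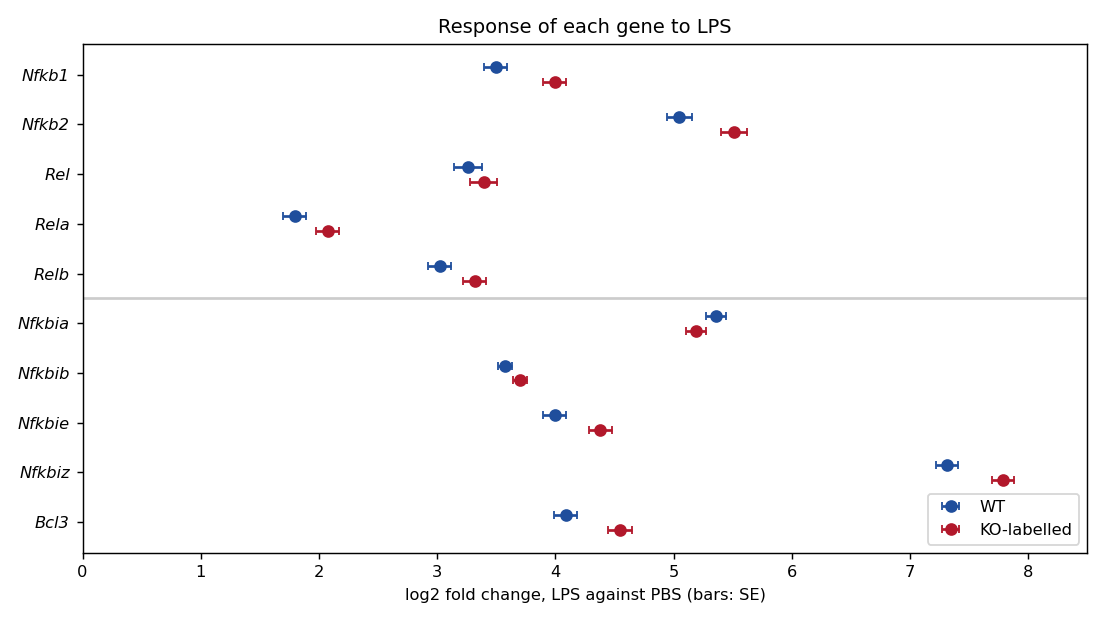
Log2 fold change of LPS against PBS for each gene in WT and KO-labelled macrophages, with bars giving the SE from the fit over 12 libraries. Nfkbiz lies at the far right (7.31 and 7.79), Rela at the left (1.79 and 2.07), and Nfkbia is the only gene whose KO point lies left of its WT point.

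Levels of different genes were compared as CPM per kilobase of exon. In WT PBS the order was Rela (26.4 CPM per kilobase), Nfkbia (17.6), Nfkbib (12.3), Nfkb2 (8.06), Bcl3 (5.31), Nfkb1 (4.37), Relb (3.51), Nfkbie (2.20), Rel (0.790) and Nfkbiz (0.686), and of these neighbours only Rel and Nfkbiz overlapped across libraries. In WT LPS it was Nfkbia (720.2), Nfkb2 (267), Nfkbib (147), Nfkbiz (109), Rela (91.5), Bcl3 (90.2), Nfkb1 (49.3), Nfkbie (35.2), Relb (28.5) and Rel (7.58). There Nfkbiz overlapped with Rela, and Rela with Bcl3. In KO PBS it was Rela (25.8), Nfkbia (24.2), Nfkbib (12.5), Nfkb2 (7.07), Nfkb1 (4.69), Bcl3 (4.19), Relb (3.62), Nfkbie (2.20), Rel (1.02) and Nfkbiz (0.670). Rela overlapped with Nfkbia in that group, Nfkb1 with Bcl3, and Bcl3 with Relb. In KO LPS the order was that of WT LPS, with Nfkbia at 883 and Nfkb2 at 322 CPM per kilobase, and no neighbours overlapped.

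As a share of the summed per-length level of the 5 subunits, Rela made up 61.2% ± 1.8 (SD, n = 3) in WT PBS and 20.7% ± 0.72 in WT LPS. Nfkb2 made up 18.7% ± 0.86 and 60.0% ± 1.2 of the same sum. The 2 genes thus exchanged places as the leading subunit mRNA. KO gave 61.1% ± 0.85 and 19.6% ± 0.82 for Rela and 16.8% ± 0.51 and 58.4% ± 0.98 for Nfkb2. Among the 5 IκB genes, Nfkbia held 46.1% ± 1.5 in WT PBS, 65.4% ± 1.8 in WT LPS, 55.3% ± 1.1 in KO PBS and 66.0% ± 2.4 in KO LPS. Nfkbib fell from 32.4% ± 0.90 to 13.3% ± 0.15 of the IκB sum in WT, while Nfkbiz went from 1.80% ± 0.11 to 9.93% ± 0.45. The summed IκB level divided by the summed subunit level was 0.884 ± 0.043 (SD, n = 3) in WT PBS, 2.52 ± 0.36 in WT LPS, 1.04 ± 0.014 in KO PBS and 2.43 ± 0.26 in KO LPS. The ratio was higher in every LPS library than in every PBS library, and the 2 LPS groups overlapped. These shares and ratios are of mRNA, and were given no test.

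**Figure D3:**
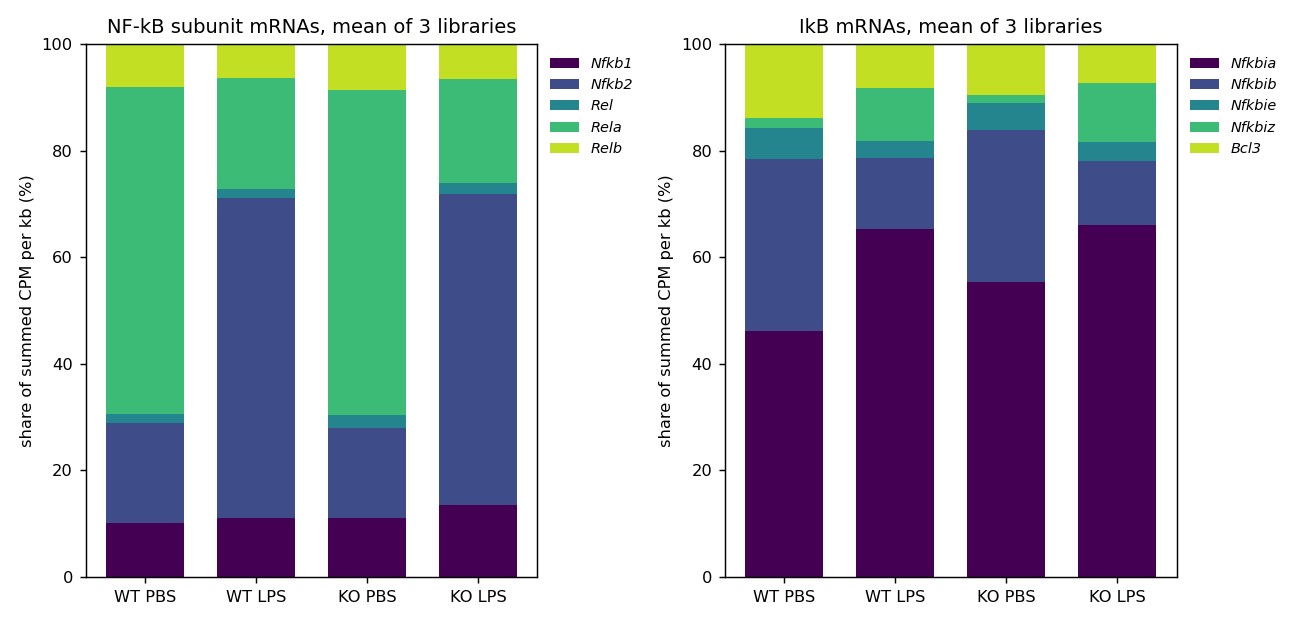
Mean share (%) of each gene in the summed CPM per kilobase of the 5 subunits (left) and of the 5 IκB genes (right) in the 4 groups (n = 3 each). Rela fills 61.2% of the left bar in WT PBS and Nfkb2 60.0% in WT LPS, and Nfkbia is the largest segment of every right bar.

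To ask whether the genotype labels differ at rest, KO PBS was compared with WT PBS. Nfkbia was higher in KO and Bcl3 was lower, and the remaining 8 members did not pass the test. This compares with 12.3% of all genes called higher and 13.0% called lower. Nfkbia differed by log2 0.46 ± 0.08 (1.38-fold, adjusted p = 0.000357), and the KO libraries (37.0 to 41.7 CPM) lay above those of WT (26.7 to 29.5 CPM). Bcl3 differed by log2 -0.34 ± 0.10 (adjusted p = 0.0241), with 9.69 to 11.7 CPM in KO below 11.8 to 13.8 CPM in WT. The Bcl3 call was lost when any of 4 PBS libraries was left out (WT replicates 1 and 3, KO replicates 1 and 2), with adjusted p up to 0.135.

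Rel had a log2 difference of 0.37 ± 0.14 (adjusted p = 0.0559) with no overlap between the groups, and it passed the threshold under 7 of 20 other settings. Nfkb2 had a difference of -0.19 ± 0.10 (adjusted p = 0.177), also without overlap. In all, 4 of the 10 members did not overlap between the PBS groups, against 48.1% of all genes. The log2 differences of Nfkb1, Relb, Nfkbib, Nfkbie, Nfkbiz and Rela lay between -0.04 and 0.10, and the signs of the smallest of these changed with the scaling. The median over the members was 0.0048 and over all genes 0.00036 on the log2 scale.

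To ask whether the labels differ in the stimulated state, KO LPS was compared with WT LPS. Of the 10 members, 9 were higher in KO and Bcl3 did not pass, against 22.1% of all genes called higher and 19.3% called lower. The groups did not overlap for 7 members, which was true of 45.6% of all genes. The median log2 difference was 0.32 for the members and 0.00059 for all genes tested, and the member differences ranged from 0.11 to 0.60. This range is small beside the responses to LPS itself, of which the smallest was 1.79. Fibroblast markers and Fscn1 were lower in KO LPS, as given above.

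Nfkb1 had the largest difference, at log2 0.60 ± 0.09 (1.52-fold, adjusted p = 5.59e-05), with 841 to 987 CPM in KO and 529 to 690 CPM in WT. Rel differed by 0.50 ± 0.10 (1.42-fold, adjusted p = 0.000819) and Relb by 0.34 ± 0.08 (1.27-fold, adjusted p = 0.00422). For these 3 subunits every KO library was above every WT library. Nfkb2 differed by 0.27 ± 0.09 (adjusted p = 0.0217) and Rela by 0.24 ± 0.09 (adjusted p = 0.0399), and their groups overlapped only through the first WT LPS library, at 1446 CPM for Nfkb2 and 330 CPM for Rela.

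Nfkbiz differed by 0.44 ± 0.06 (1.36-fold, adjusted p = 4.56e-05), Nfkbie by 0.38 ± 0.08 (adjusted p = 0.00122) and Nfkbia by 0.29 ± 0.07 (1.23-fold, adjusted p = 0.00281). Nfkbib had the smallest difference that passed, 0.14 ± 0.05 (adjusted p = 0.0348). Bcl3 differed by 0.11 ± 0.08 (adjusted p = 0.297). The calls for Nfkb1, Rel, Relb, Nfkbia, Nfkbie and Nfkbiz held under all 20 other settings, whereas those for Nfkb2, Rela and Nfkbib were lost under 7, 10 and 13 of them. The first WT LPS library was the highest of its group for 8 of the 10 members (43.4% of all genes tested). Without it, all 10 members were called higher in KO, with Nfkb1 at 0.72 ± 0.07, Nfkb2 at 0.41 ± 0.06 (adjusted p = 1.78e-05), Rela at 0.37 ± 0.07 (adjusted p = 0.00015) and Bcl3 at 0.22 ± 0.06 (adjusted p = 0.0118).

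**Figure D4:**
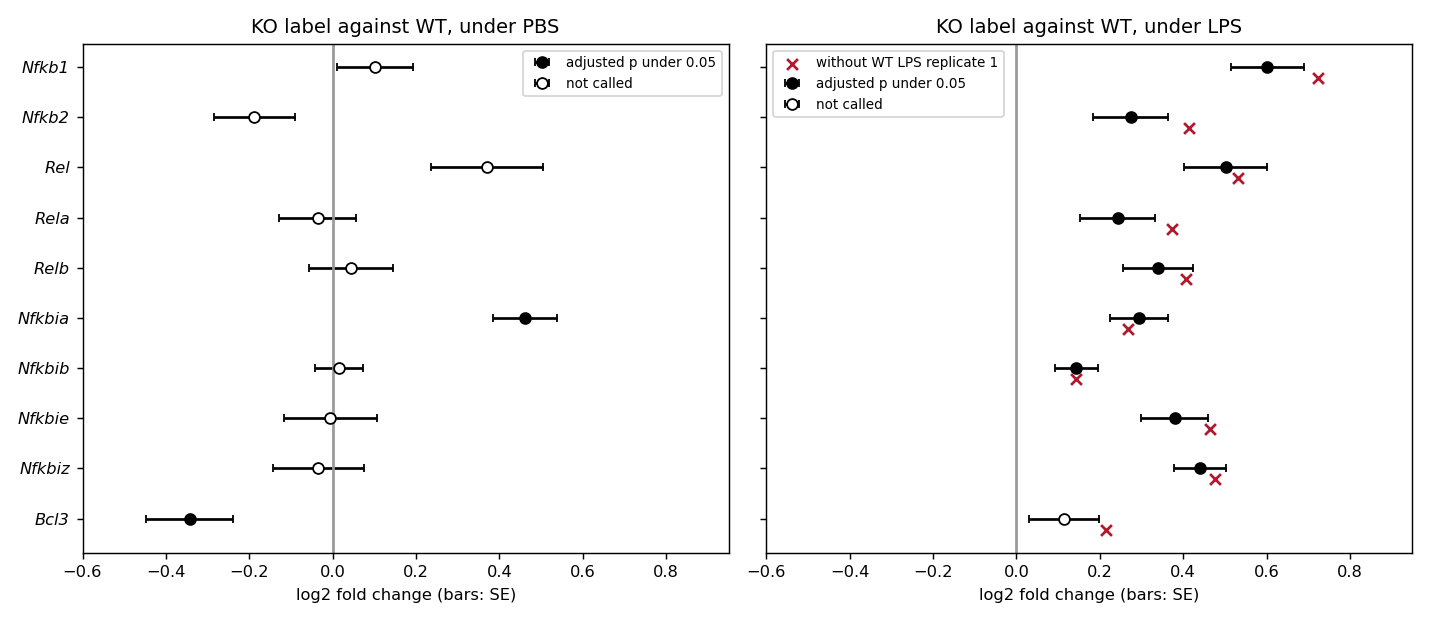
Log2 difference between KO-labelled and WT macrophages under PBS (left) and under LPS (right) for each gene, with bars giving the SE. Filled points had an adjusted p under 0.05, open points did not, and crosses give the value without WT LPS replicate 1. Under PBS only Nfkbia (0.46) and Bcl3 (-0.34) are filled, and under LPS all points lie right of 0 and only Bcl3 is open.

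Whether the response to LPS itself differed between the labels was tested by the interaction of genotype and treatment. Nfkb1, Nfkb2, Nfkbiz and Bcl3 rose by more in KO, so that 4 of 10 members were called higher, against 9.78% of all genes, and none was called lower, against 8.26%. The difference in log2 response was 0.50 ± 0.13 (adjusted p = 0.0127) for Nfkb1, 0.47 ± 0.13 (adjusted p = 0.0163) for Nfkbiz, 0.46 ± 0.13 (adjusted p = 0.0236) for Nfkb2 and 0.46 ± 0.13 (adjusted p = 0.0262) for Bcl3. Nfkb1, Nfkb2 and Nfkbiz passed the comparison of labels under LPS and not that under PBS. Bcl3 passed that under PBS, where it was lower in KO, and not that under LPS.

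The 6 members that did not pass were Nfkbie (0.39 ± 0.14, adjusted p = 0.0614), Relb (0.30 ± 0.13, adjusted p = 0.137), Rela (0.28 ± 0.13, adjusted p = 0.152), Nfkbib (0.13 ± 0.08), Rel (0.13 ± 0.17) and Nfkbia (-0.17 ± 0.10, adjusted p = 0.295). For Rel, which like Nfkbia had a positive difference under PBS, the adjusted p was 0.657. The Nfkb1 call held under all 19 other settings. Those for Nfkbiz, Bcl3 and Nfkb2 were lost under 5, 8 and 9 of them. Without the first WT LPS library 7 members passed, Rela (0.41 ± 0.09), Relb (0.36 ± 0.12) and Nfkbie (0.47 ± 0.12) being added. With scaling by library totals alone only Nfkb1 passed.

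**Figure D5:**
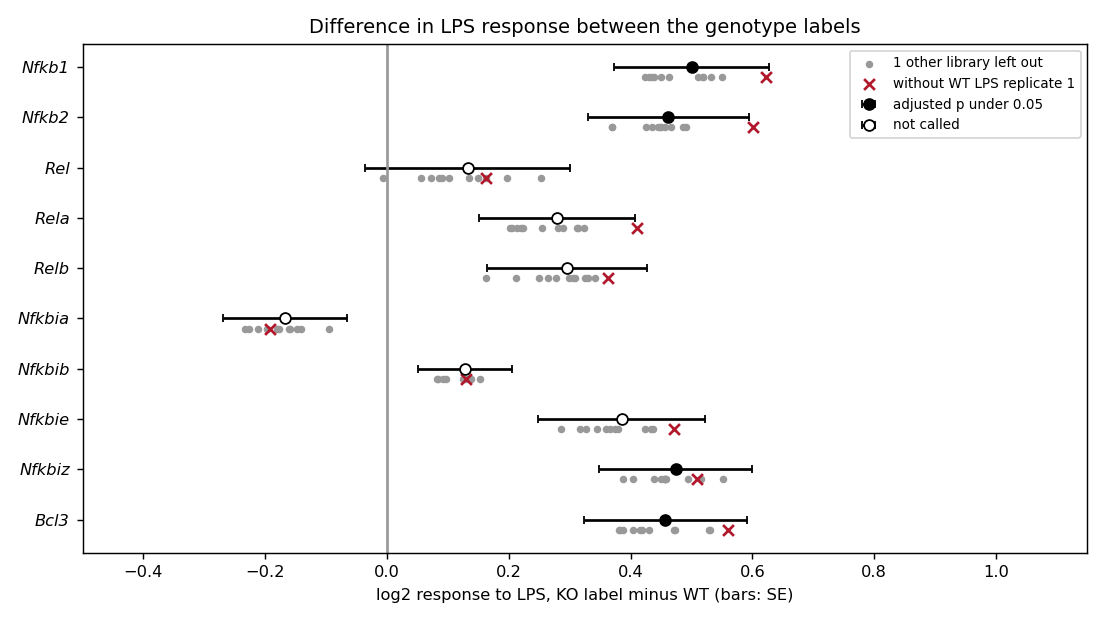
Difference in log2 response to LPS (KO label minus WT) for each gene, with bars giving the SE. Grey points show the value with 1 other library left out and crosses the value without WT LPS replicate 1. Nfkb1, Nfkb2, Nfkbiz and Bcl3 (filled) lie between 0.46 and 0.50, and Nfkbia is the only gene left of 0 (-0.17).

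The genes that act directly on the members were described from 4 lists. Of all genes tested, 36.5% were called higher and 40.2% lower after LPS in WT, 38.8% and 41.1% in KO, 12.3% and 13.0% between the labels under PBS, and 22.1% and 19.3% between them under LPS. Of 8 genes for IKK and its upstream kinases, 4 were higher and 2 lower after LPS in WT, and 5 higher and 2 lower in KO, but with scaling by library totals the counts were 2 higher and 5 lower in both. Tab2, an adaptor of the TAK1 kinase, rose by log2 1.56 ± 0.06 in WT and 1.81 ± 0.07 in KO, and Ikbkb, the catalytic subunit IKKβ, by 1.00 ± 0.08 and 1.17 ± 0.08. Tab1, another TAK1 partner, fell in both (log2 -0.74 ± 0.11 and -1.06 ± 0.12), Map3k7, which encodes TAK1, fell in WT (-0.36 ± 0.07) and Map3k14, the kinase of the non-canonical branch, fell in KO (-0.76 ± 0.15). Between the labels under LPS, 6 of the 8 were higher in KO (22.1% of all genes) and 1 lower (19.3%), with Ikbkg (IKKγ, the regulatory subunit) at 0.56 ± 0.06 and Chuk (IKKα) at 0.48 ± 0.07. The gene that was lower was Map3k14, at -0.71 ± 0.16. Under PBS Ikbkg (0.34 ± 0.06) and Chuk (0.23 ± 0.07) passed, but Chuk not without WT PBS replicate 1 or 2 or KO PBS replicate 1, and 4 genes passed without WT LPS replicate 1. The interaction, called higher for 9.78% and lower for 8.26% of all genes, was called for Map3k7 (0.33 ± 0.10) and Map3k14 (-0.89 ± 0.20). The Map3k7 call was lost under 8 of 19 other settings, 7 of which left out 1 library (any WT PBS library, WT LPS replicate 2, KO PBS replicate 2 or 3, or KO LPS replicate 3), and the genes called higher were 4 without WT LPS replicate 1 and 3 without KO LPS replicate 2.

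Of 7 genes for the ubiquitin ligase that marks IκB proteins, 4 were higher and 1 lower after LPS in either genotype (all genes, 36.5% and 40.2% in WT and 38.8% and 41.1% in KO), though with library totals 2 were higher in both and 4 (WT) or 5 (KO) lower. Fbxw11 (β-TrCP2), a substrate adaptor, rose by log2 1.49 ± 0.06 in WT and 1.36 ± 0.06 in KO, Ube2d3, an E2 enzyme, rose by 1.25 ± 0.06 and 1.39 ± 0.06, and the paralogue of Fbxw11, Btrc, fell by 0.25 ± 0.09 and 0.30 ± 0.09. The WT call of Btrc was lost with DESeq2 and without WT PBS replicate 1, which left 0 genes of the list lower. Cul1, the scaffold, was higher in KO by 0.23 ± 0.06 under PBS and 0.37 ± 0.06 under LPS, and Ube2d3 by 0.26 ± 0.06 under LPS. The other 5 did not pass between the labels under LPS, and no gene of this list passed the interaction (18.0% of all genes did in either direction).

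Of 12 other IκB-like and nuclear regulators, 9 were higher (36.5% of all genes in WT and 38.8% in KO) and 1 lower (40.2% and 41.1%) after LPS in each genotype, but with library totals 3 (WT) or 2 (KO) were higher and 7 lower. The largest rises were those of Nfkbil1 (log2 1.81 ± 0.10 in WT and 2.13 ± 0.09 in KO) and Nfkbid, which encodes the nuclear IκBNS (0.95 ± 0.07 and 1.31 ± 0.07), and the repressor gene Nkrf fell (-0.62 ± 0.15 and -0.39 ± 0.15, the latter not called with DESeq2, nor when replicate 1 of KO PBS or replicate 1 or 3 of KO LPS was left out). Under LPS 5 were higher in KO (22.1% of all genes) and 1 lower (19.3%), led by Pdlim2, a ligase that acts on nuclear p65 (1.23 ± 0.10), and Nfkbid (0.79 ± 0.07), while Nkiras2, which binds IκBα and IκBβ, was lower (-0.75 ± 0.06). Under PBS 3 were higher (12.3% of all genes) and 1 lower (13.0%), namely Nfkbid (0.44 ± 0.07) and the coactivator gene Crebbp (0.35 ± 0.08) among the higher and Nkiras2 (-0.17 ± 0.06) as the lower one, whose call was lost under 10 of 20 other settings, among them leaving out any PBS library or WT LPS replicate 3. The interaction was called higher for Pdlim2 (1.01 ± 0.14) and Nfkbid (0.36 ± 0.10) and lower for Nkiras1 (-0.62 ± 0.17) and Nkiras2 (-0.57 ± 0.085), against 9.78% and 8.26% of all genes. Of these, the calls of Nfkbid and Nkiras1 were lost under 6 and 2 of 19 other settings. Those were library totals and leaving out WT PBS replicate 2, WT LPS replicate 2 or 3 or KO PBS replicate 1 or 3 for Nfkbid, and leaving out WT LPS replicate 2 or KO LPS replicate 1 for Nkiras1.

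Of 26 known NF-κB target genes, all were called higher after LPS in both genotypes (36.5% of all genes in WT and 38.8% in KO). With at least 10 counts required in every library, Il6, Il12b, Csf2, Csf3 and Lcn2 were not tested. The other 21 were all called higher in both genotypes. Nos2, the inducible nitric oxide synthase, rose by log2 12.89 ± 0.45 in WT from 13 to 31 counts per PBS library, and Il1b by 12.54 ± 0.43 in KO from 14, 17 and 91 counts. The last count is that of the third KO PBS library, and without it the rise of Il1b was 13.92. Il12b in WT PBS had 3 to 5 counts and Il6 in KO PBS 1 to 13, and their folds are not given. In KO against WT, 1 was higher and 10 lower under PBS (12.3% and 13.0% of all genes), and 21 were higher and 1 lower under LPS (22.1% and 19.3%), where Cxcl1, a neutrophil chemokine, differed by log2 3.23 ± 0.08. Among the 21 still tested with at least 10 counts required in every library, 9 were lower under PBS and 16 higher under LPS, and the interaction was called for 14. Csf2 had 0 counts in every PBS library, 7 to 16 in WT LPS and 123 to 180 in KO LPS, and Csf3 0 to 1 in KO PBS, 5 to 10 in WT PBS and 392 to 1757 under LPS, so both were tested through the libraries where they are high and their folds are not given. Under PBS, Birc3 was the one that was higher (0.20 ± 0.07), a call lost under 9 of 20 other settings, among them leaving out any WT PBS library, WT LPS replicate 3, KO PBS replicate 2 or KO LPS replicate 1. Ccl5 was among the lower (-2.03 ± 0.19). The adhesion molecule Icam1 was the one that was lower under LPS (-0.37 ± 0.07). The interaction was called higher for 15 of the 26, Cxcl1 (3.66 ± 0.215) among them, and lower for none (9.78% and 8.26% of all genes).

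Of the 8722 genes that averaged 5 CPM or more, those whose log2 CPM followed each member most closely over the 12 libraries, which share the division into PBS and LPS, had Pearson r of 0.998 or more. They were Nlrp3 and Zc3hav1 for Nfkb1, Gramd1a and Vasp for Nfkb2, Armc8 and Vcpip1 for Rel, Sec24b and Zdhhc5 for Rela, and Nfkbie and Junb for Relb. For the IκB genes they were Gtpbp2 and Znrf1 for Nfkbia, Trafd1 and Irgm2 for Nfkbib, Zc3h12a and Cdkn1a for Nfkbie, Lrrc8c and Trafd1 for Nfkbiz, and Phc2 and Stat2 for Bcl3. Within the 10 members, the closest to Nfkb2 and to Relb was Nfkbie (r = 0.999 for both), and the closest to Nfkbia was Nfkbib (r = 0.998). Rel stood farthest from the other members, with r = 0.994 to Nfkb1 as its nearest.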

How the data were processed

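Total RNA from 12 libraries was sequenced as single-end reads on a BGISEQ instrument. The submitters' processing notes name Bowtie2, RSEM 1.3.1 and GRCm38.p6, whereas the methods name STAR and HTSeq. The deposited values are expected counts per gene, not scaled between libraries. Decimals were present in 24.6% to 26.9% of values per library. Among the members they occurred only in Relb (8 libraries, at most 0.132% off a whole number) and Nfkbib (2 libraries), and values were rounded before testing. Whether reads were counted by strand is not given in the sources used here.

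Genes with low counts were removed (filterByExpr), libraries were scaled by TMM, and all 12 were fitted with 1 mean per group by the quasi-likelihood test of edgeR 4.0.16 (R 4.3.3). Tests were two-sided, and p-values were adjusted by Benjamini-Hochberg over 12064 genes, with a threshold of 0.05. The biological coefficient of variation was 6.99%. The labels call the samples of a group biological replicates. Gene positions are those of RefSeq GRCm38.p6. Exon lengths are the union of the exons of all GENCODE transcripts of a gene on build GRCm38. That union was 12061 bases over 10 transcripts for Nfkb1 and 7466 bases over 1 transcript for Rel. It takes in every annotated transcript, used by these cells or not, so the levels per kilobase depend on the annotation. The scripts were tested on simulated data.

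All 10 members are named. Of each pathway list the counts called each way are given with the 2 largest changes each way per comparison, without folds where a group was near 0 counts. The members and lists were chosen with earlier results of these data known. Alternatives were RLE, upper-quartile and library-total scaling, other filters, DESeq2 1.42.0, a fit on only the libraries compared, a replicate block and leaving out each library.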

Additional observations from a re-analysis of the deposited data

Results flagged for a closer look

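The LPS response differed between the genotype labels for 4 members by the test of the difference itself (edgeR's quasi-likelihood test, Benjamini-Hochberg adjusted). The log2 response was larger in KO by 0.50 for Nfkb1, 0.47 for Nfkbiz, 0.46 for Nfkb2 and 0.46 for Bcl3, with adjusted p from 0.0127 to 0.0262. For Nfkb1 and Nfkbiz every KO LPS library was above every WT LPS library. For Nfkb2 and Bcl3 the LPS groups overlapped and the KO PBS libraries were all below the WT PBS libraries. The part of the fibroblast markers, of which all 4 tested were lower in KO under either treatment, was not tested.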

How the results depend on the processing

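All 10 members were called higher after LPS in both genotypes under all 20 alternatives. Library totals lowered the median of all genes by 0.66 (WT) and 0.80 (KO) on the log2 scale, upper-quartile scaling by 0.31 and 0.36, and the lowest member response was then that of Rela in WT, 1.13. For KO against WT under PBS, RLE scaling, library totals and DESeq2 each gave 2 members higher in place of 1, and a fit on the PBS libraries alone gave 4 called, 2 higher and 2 lower. Leaving out 1 library gave 1 to 3 called (1 to 2 higher, 0 to 2 lower). For KO against WT under LPS it gave 6 to 10, all higher, and upper-quartile scaling and library totals each gave 6 of 10. For the interaction library totals gave 1 member, called higher, and lowered the median of all genes by 0.14, and leaving out 1 library gave 1 to 7, all higher. Of 990 recomputed member values, 902 kept their direction and side of the threshold, 56 lost the call, 13 gained it and 19 changed sign. The sign changes were of values near 0. Under PBS, Nfkbie became 0.011 with RLE scaling, 0.043 with library totals and 0.014 with DESeq2, Nfkbib -0.0063 with upper-quartile scaling, and Rela 0.013 and Nfkbiz 0.014 with library totals. Leaving out 1 library gave -0.069 to 0.035 for Rela, -0.0052 to 0.17 for Relb, -0.058 to 0.091 for Nfkbie and -0.12 to 0.049 for Nfkbiz. In the interaction, Rel became -0.0059 and Nfkbib -0.0095 with library totals, and leaving out 1 library gave -0.0066 to 0.25 for Rel. The cause was not tested.

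Of 18 pairs of libraries with the same replicate number, 1 had a correlation of deviations over 0.1 (range -0.076 to 0.13). Pairs with different numbers were not compared, so this cannot tell whether the replicate numbers pair the libraries. With a replicate block the members called were 10, 10, 2, 9 and 4 in the order of the comparisons above, and no count changed. At these depths 3 counts equal 0.105 to 0.187 CPM, and the lowest member, Nfkbiz under PBS, was at 3.09 CPM.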
